A study of Mus musculus with 89 samples.

Results

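The cytosolic ribosomal protein genes encode the protein subunits of the ribosome that translates nuclear mRNAs. They were taken by symbol, as every row named Rpl or Rps followed by a number and at most a short suffix, plus Rplp0, Rplp1, Rplp2 and Rpsa, with processed pseudogene rows (-ps) left out. This gave 86 of 27538 genes in the table of clumps and 85 of 23379 in the table of single cells, of 29100 distinct genes in all. By role they were 33 genes of the small (40S) subunit with Rpsa, 42 of the large (60S) subunit, 3 of the P stalk (Rplp0, Rplp1 and Rplp2) and 8 listed paralogs (Rpl3l, Rpl6l, Rpl7l1, Rpl10l, Rpl22l1, Rpl39l, Rps4l and Rps27l). Rps12l1 and Rps3a2 were counted with the small subunit. The annotation gives Rps12l1, Rps3a2, Rpl6l and Rps4l as processed pseudogenes, though their symbols carry no -ps. All 86 genes were chosen by symbol and not by measured values, though with earlier results of these data known.

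All samples were jejunal epithelium of male C57BL/6 mice on regular chow, aged 3 months except for 3 plates of single cells of mouse 2 that are labelled 4 months. Clumps of attached cells from an incomplete dissociation were sorted by Hoechst DNA content into multi-well plates, as pairs (4n) from mice 1 to 5 on 27 plates, as clumps labelled h4n from mice 1, 4 and 5 on 14 plates, and as clumps labelled h2n from mouse 6 on 4 plates. The labels do not spell out h4n and h2n, which were read as above 4n (larger clumps) and above 2n. Dissociated single cells came from mice numbered 1 to 4, on 44 plates under 7 sort labels (Epcam, onlyEpcam, Epcam_Cd24low, EpcamLow_Cd24high, CD24, CD45Epcam and CD54Epcam), with no label on 10 plates. The labels do not say whether clumps and cells of the same number share an animal, and they were never paired. Both were sequenced by MARS-seq, in which a unique molecular identifier (UMI) counts each captured mRNA molecule once whatever its length, so the level of a gene is given as CPM (its UMIs per 1000000 UMIs of the sum), and that of all these genes together as a percent share of UMIs.

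After filters on genes, UMIs and mitochondrial share, 5722 clumps of mice 1 to 5 were given a place on the crypt–villus axis from 70 crypt, 10 mid-villus and 29 villus tip genes, none of them a ribosomal protein gene. There were 2570 crypt, 1959 mid-villus and 1193 villus tip clumps. Summed per mouse they held 269951 to 18227278 UMIs in the crypt, 185105 to 3242079 in the mid-villus and 161822 to 1585573 at the villus tip. Sets of marker genes also differed between the zones. The stem and dividing cell list and the enterocyte list are of the same kinds of genes that set the zones, so their differences are no separate support. The stem and dividing cell list took 0.0863% to 0.182% of crypt UMIs and 0.00859% to 0.0280% of villus tip UMIs, the enterocyte list 0.982% to 3.65% and 4.56% to 9.87%, and the Paneth list 0.0115% to 8.11% and 0.0166% to 0.322%. Of the single cells, 5199 passed the filters, and clusters led by known markers were called enterocyte-like (2553 cells), immune-like (1614), enteroendocrine-like (243), goblet-like (211) and tuft-like (186).

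Ribosomal proteins are made in equimolar amounts and assembled with ribosomal RNA in the nucleolus, and the demand for them follows growth and division. In mammals their mRNAs belong to the TOP class (terminal oligopyrimidine), which begins with a C and a run of pyrimidines at the 5′ end and whose translation is tied to nutrient signals through mTOR and LARP1. In the intestine, the crypt holds stem cells and dividing progenitors, whereas villus enterocytes no longer divide and are shed at the tip.

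The pyrimidine run can be read from the genome near many of the annotated starts. In RefSeq (GRCm38.p6), 62 of the 86 genes had a start, and 41 of them (66.1%) held a C followed by at least 7 bases that are each C or T. The run was read on the strand that matches the mRNA, in the window from 10 bases before to 50 bases after that start. The same run was found in 16.6% of 27025 promoters and in 15.5% of the 5342 other promoters whose gene was tested along the axis. Window and run length were settled after several had been tried, and over those settings 19.4% to 90.3% of the 62 genes and 3.39% to 58.3% of all promoters held a run. The following stretches of 30 bases are shown for the most abundant genes, for genes of different roles and for those with the largest changes, with the run in capitals.
Rps12 (chr10:23787177-23787206, minus strand): gccggCCTTTTCCCCTgccgccgccgactt
Rps24 (chr14:24490698-24490727, plus strand): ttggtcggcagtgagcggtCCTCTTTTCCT
Rps15a (chr7:118116123-118116152, minus strand): gccatCTTCCCTCgccggtgagtgagtgtt
Rps6 (chr4:86857344-86857373, minus strand): tcgggCCTCTTTTTCgtgacgcctcccagg
Rpl12 (chr2:32961732-32961761, plus strand): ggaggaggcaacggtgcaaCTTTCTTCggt
Rpl4 (chr9:64173407-64173436, plus strand): gcgtggCCTTCTCCTCTCCCCgtcatggtg
Rpl41 (chr10:128549119-128549148, minus strand): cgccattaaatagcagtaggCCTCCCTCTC
Rpl28 (chr7:4792958-4792987, plus strand): cgtgtCTCTCTTTCCgtctccggccgccat
Rplp2 (chr7:141447642-141447671, plus strand): agcgtCTTCCTTTCgccgccggacgccgcc
The windows of Rplp0 and of the paralogs Rps27l and Rpl7l1 held no such run, and the stretch at their annotated start is shown without capitals. An annotated start may differ from the start in use, so a window without a run does not show that the mRNA lacks one.
Rplp0 (chr5:115559462-115559491, plus strand): ttcgaggaccgcctggttctcctataaaag
Rps27l (chr9:66946081-66946110, plus strand): ccgccgcctctatcccggaagttgctgagg
Rpl7l1 (chr17:46782632-46782661, minus strand): gcaagcgcagtagctgaagcaccggaaaga

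Along the crypt–villus axis of the clumps, the share of UMIs from ribosomal protein genes was highest in the crypt. In mice 1 to 5 it was 10.8%, 10.7%, 11.0%, 11.7% and 6.44% in crypt clumps. In mid-villus clumps of the same mice it was 3.19%, 2.90%, 2.82%, 6.90% and 1.25%. At the villus tip it was 4.64%, 2.10%, 3.58%, 4.31% and 1.41%. Every mouse was highest in its crypt, and mouse 5 was lowest of the 5 mice in each zone. No villus tip value reached any crypt value, whereas the mid-villus value of mouse 4 lay above the crypt value of mouse 5.

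**Figure D1:**
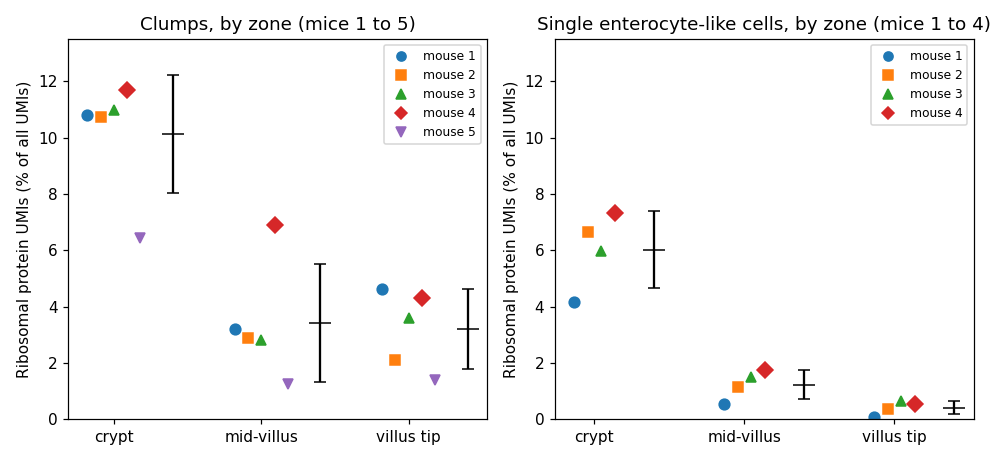
Ribosomal protein share of UMIs (percent, vertical axis) by zone, in clumps of mice 1 to 5 (left) and in single enterocyte-like cells of mice 1 to 4 (right), with 1 point per mouse and the mean ± SD. Crypt clumps sit between 6.44% and 11.7% and villus tip clumps between 1.41% and 4.64%, crypt cells between 4.15% and 7.33% and tip cells between 0.0969% and 0.650%.

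The mean share was 10.1% ± 2.10 (SD, n = 5) in the crypt, 3.41% ± 2.09 (SD, n = 5) in the mid-villus and 3.21% ± 1.40 (SD, n = 5) at the villus tip. The villus tip differed from the crypt by −6.92 points, 3.16-fold lower, and between 2.33-fold and 5.12-fold within single mice (lower in 5 of 5 mice, exact permutation test, two-sided, p = 0.00794, the smallest that 5 against 5 mice allows, adjusted p = 0.0238 over 3 comparisons). The mid-villus differed from the crypt by −6.72 points, 2.97-fold lower (lower in 5 of 5 mice, exact permutation test, p = 0.0159, adjusted p = 0.0238). The villus tip differed from the mid-villus by −0.204 points (lower in 2 and higher in 3 of 5 mice, exact permutation test, p = 0.881), a difference whose sign turned under some alternatives. With the mouse as a block both differences from the crypt had an adjusted p = 0.0938 (exact permutation test of signs, smallest unadjusted p = 0.0625). Without mouse 1, 2 or 3 the adjusted p of both was 0.0857 (exact permutation test), and without mouse 4 or 5 it was 0.0429.

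Clumps within a zone were spread widely. The share per clump had a median of 11.6% in the crypt, with the middle 80% of clumps from 5.22% to 16.1%, a median of 1.64% in the mid-villus and a median of 0.821% at the villus tip. A clump holds several cells, so fewer cells of one kind and less of these mRNAs per cell cannot be told apart in these sums. The mitochondrial share of UMIs was 3.63% to 18.9% in the crypt and 6.66% to 20.0% at the tip, highest in mouse 5. Over non-mitochondrial UMIs alone the difference of the villus tip from the crypt was −7.33 points (exact permutation test, adjusted p = 0.0119), and without clumps rich in Paneth genes it was −8.00 points (exact permutation test, adjusted p = 0.0238).

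Placed on a score from 0 (all landmark UMIs of the crypt) to 2 (all of the tip), the share was lower toward the tip. Its median over mice was 12.2% (range 8.33% to 12.8%) between 0 and 0.2, 7.80% between 0.8 and 1.0, 4.00% between 1.0 and 1.2, and 0.792% (range 0.350% to 2.14%) between 1.8 and 2.0. Between 0 and 0.8 the medians lay between 9.09% and 12.2%. Above that each interval was lower than the one before, and the median was 2.58% between 1.2 and 1.4. The median over mice was lower in single enterocyte-like cells than in clumps in every interval, though values of single mice overlapped, with a median of 7.97% between 0 and 0.2 (3 mice) and 0.238% between 1.8 and 2.0 (4 mice). The difference between clumps and cells was not tested, since the labels do not say whether they share animals and the dissociation differed.

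**Figure D2:**
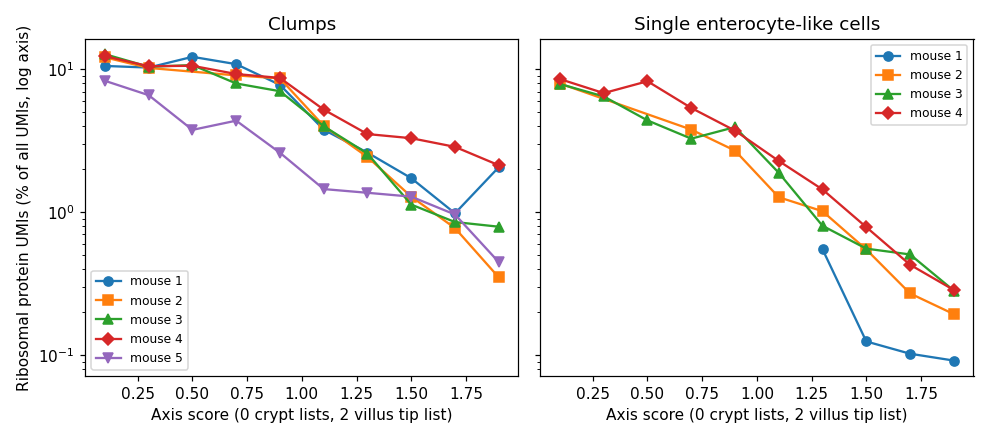
Ribosomal protein share of UMIs (percent, vertical log axis) against the landmark score (0 crypt to 2 villus tip, in steps of 0.2), for clumps (left) and for single enterocyte-like cells (right), with a point per interval and a line for each mouse. The clump median goes from 12.2% to 0.792% and the cell median from 7.97% to 0.238%.

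In a fit over all genes, nearly every member was lower at the villus tip than in the crypt. Of the 86 genes, 83 had enough UMIs to be tested. Rpl10l and Rpl39l had 0 UMIs in the zoned clumps and Rpl3l had 2. Of the 83, 80 were lower and 0 higher (edgeR quasi-likelihood test, adjusted p under 0.05), beside 24.6% of all 7912 genes tested that were lower. All 83 estimates were below 0, with a median log2 change of −1.55, beside −0.04 over all genes. In 68 members every mouse at the tip lay below every mouse in the crypt, as did 14.9% of all genes.

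**Figure D3:**
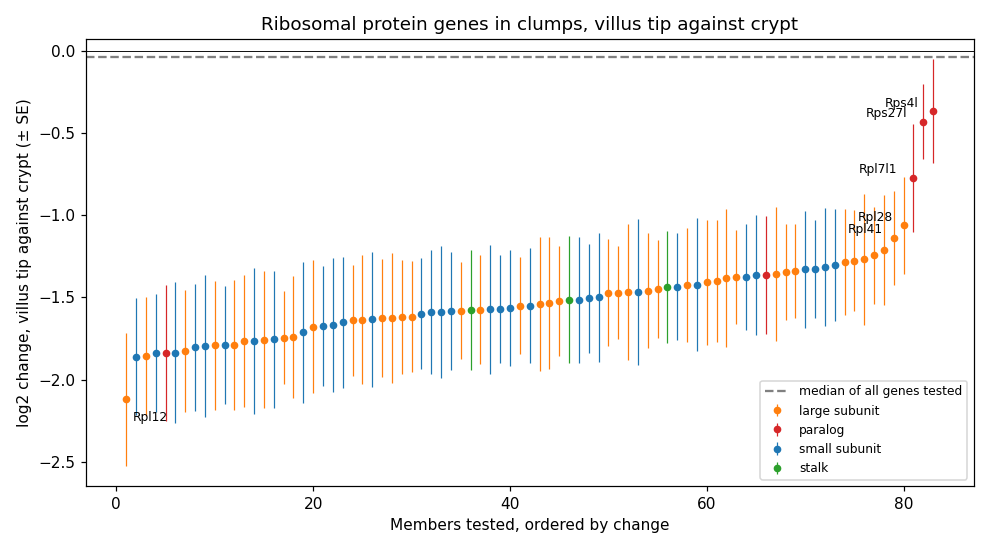
Log2 change of each of the 83 tested members in clumps, villus tip against crypt (vertical axis), ordered by change and colored by role, with standard errors from edgeR and a dashed line at the median of all genes tested (−0.04). All points lie below 0. Rpl12 is farthest from 0 (−2.12) and the paralogs Rps27l (−0.43) and Rps4l (−0.37) are nearest.

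The small subunit genes all moved the same way. All 33, Rps12l1 and Rps3a2 among them, were lower at the tip, with a median log2 change of −1.58 and a range from −1.86 to −1.30. Rps12 (chr10:23785183-23787275, minus strand), a small subunit protein, had the most UMIs of the members in the pooled clumps, of which crypt clumps of mouse 4 hold 2132065 of 2972710 member UMIs. Within single mice Rplp1 led the crypt of mice 1, 2 and 5, Rpl41 that of mouse 3 and Rps12 that of mouse 4. Rps12 had 3052, 2841, 3239, 3505 and 1685 CPM in the crypt of mice 1 to 5 and 1314, 481, 1037, 1282 and 439 at the tip. The lowest crypt value, of mouse 5, lay above the highest tip value, and Rps12 was 2.86-fold lower at the tip (log2 change −1.51 ± 0.38 SE, edgeR adjusted p = 0.00295). Rps27a, which is made as a fusion with ubiquitin, went from 811 to 1077 CPM in the crypt to 124 to 385 at the tip (log2 change −1.86 ± 0.36, edgeR adjusted p = 0.000287). Rps23, which lies at the decoding centre, went from 663 to 1090 CPM in the crypt to 68.0 to 400.1 CPM at the tip (log2 change −1.84 ± 0.36, edgeR adjusted p = 0.000349). Rps24, mutated in Diamond–Blackfan anaemia, had 2052, 2229, 2201, 2430 and 1548 CPM in the crypt and 853, 394, 725, 934 and 321 at the tip, with no overlap (log2 change −1.56 ± 0.35, edgeR adjusted p = 0.00115). Rps6, the subunit phosphorylated by S6 kinase, had a log2 change of −1.67 ± 0.41 (edgeR adjusted p = 0.00224). Rpsa, also known as the laminin receptor, was 2.76-fold lower (edgeR adjusted p = 0.0107), a call lost without mouse 2 (edgeR adjusted p = 0.0687).

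The large subunit proteins behaved alike, with more spread among them. All 42 were lower at the tip, with a median log2 change of −1.53 and a range from −2.12 to −1.06. Rpl12 (chr2:32961559-32965345, plus strand), which binds at the base of the stalk, had 1370, 1349, 1410, 1591 and 1467 CPM in the crypt and 396, 170, 293, 511 and 161 at the tip. The crypt values were close to each other, mouse 5 among them, and Rpl12 had the largest change of all members at the tip (4.35-fold lower, log2 change −2.12 ± 0.40, edgeR adjusted p = 0.000268) and in the mid-villus (5.11-fold lower). Rpl36a had a log2 change of −1.86 ± 0.36 at the tip (edgeR adjusted p = 0.000345). Rpl3 and Rpl4, which the study probed in tissue by single-molecule FISH, are core proteins of the large subunit. Rpl3 had 795, 876, 821, 1174 and 548 CPM in the crypt and 304, 147, 206, 335 and 105 at the tip (log2 change −1.79 ± 0.40, edgeR adjusted p = 0.00105). Rpl4 had 1477, 1867, 1619, 2500 and 963 in the crypt and 678, 336, 493, 813 and 266 at the tip (log2 change −1.54 ± 0.40, edgeR adjusted p = 0.00366). For both genes the crypt and tip values did not overlap.

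The smallest falls among core proteins were those of Rpl28 and Rpl41. Rpl41, the smallest ribosomal protein, had the most UMIs of the members at the villus tip of each of the 5 mice. It had 3008, 3041, 3355, 2931 and 1734 CPM in the crypt and 1644, 837, 1314, 1314 and 692 at the tip (log2 change −1.14 ± 0.29, edgeR adjusted p = 0.00287). Rpl28 (chr7:4792874-4795066, plus strand) had 1377, 1416, 1311, 998 and 500 in the crypt and 831, 384, 657, 413 and 173 at the tip, so that the tip values of mice 1 and 3 exceeded the crypt value of mouse 5 (log2 change −1.06 ± 0.30, edgeR adjusted p = 0.00598). Without mouse 2 (edgeR adjusted p = 0.0568) and with zones set by correlation (edgeR adjusted p = 0.0573) the change of Rpl28 did not pass the test.

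The 3 stalk proteins, which recruit the translation factors that hydrolyse GTP, fell together. Rplp0 had 2079, 2275, 1920, 2733 and 1211 CPM in the crypt and 831, 379, 670, 937 and 266 at the tip, without overlap (log2 change −1.58 ± 0.36, edgeR adjusted p = 0.00147). Rplp1 had a log2 change of −1.44 ± 0.34 (edgeR adjusted p = 0.00175) and Rplp2 of −1.51 ± 0.39 (edgeR adjusted p = 0.00317).

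The paralogs were uneven. Rpl6l was lower at the tip by a log2 change of −1.84 ± 0.42 (edgeR adjusted p = 0.00126) and Rpl22l1, whose own mRNA is repressed by Rpl22, by −1.36 ± 0.36 (edgeR adjusted p = 0.00399). Rpl22 itself changed by −1.74 ± 0.37 (edgeR adjusted p = 0.000744). Rps27l (chr9:66946086-66949516, plus strand), a p53-induced paralog of Rps27, had 391, 348, 431, 372 and 244 CPM in the crypt, 411, 318, 428, 379 and 151 in the mid-villus and 278, 218, 321, 224 and 161 at the tip. Its values overlapped between all 3 zones, and neither its tip change (log2 −0.43 ± 0.23, edgeR adjusted p = 0.128) nor its mid-villus change (−0.10 ± 0.23, edgeR adjusted p = 0.761) passed the test. Rps4l (log2 −0.37 ± 0.32 at the tip, edgeR adjusted p = 0.357) and Rpl7l1 (−0.77 ± 0.33, edgeR adjusted p = 0.0587) were not called either, at 13.1 to 81.6 CPM in any zone. With the mouse as a block, the tip changes of Rps27l (−0.43, edgeR adjusted p = 0.0367) and Rpl7l1 (−0.76, edgeR adjusted p = 0.00485) did pass. Rps27l also passed in DESeq2 (−0.50, adjusted p = 0.00555). Rpl7l1 also passed by total UMIs, with DESeq2 size factors, without mouse 4, with zones set by correlation, and over 1000 UMIs (edgeR adjusted p from 0.00655 to 0.0372). Rpl7l1 was called lower in the mid-villus (−1.04 ± 0.31, edgeR adjusted p = 0.00917), though not without mouse 2 (edgeR adjusted p = 0.0549) or with pairs only (edgeR adjusted p = 0.0976).

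The mid-villus gave much the same picture as the tip. Of the 83 tested members, 81 were lower there than in the crypt (edgeR adjusted p under 0.05; 25.1% of all genes were lower), with a median log2 change of −1.59. Only 25 members had every mouse below every crypt mouse (12.9% of all genes), and for Rps12 (2117 CPM in mouse 4, 292 to 863 in the others) and Rplp0 (1489 and 265 to 629) the mid-villus value of mouse 4 lay above the crypt value of mouse 5. Between villus tip and mid-villus no member passed the test (0 of 83 in edgeR, also 0 at an unadjusted p under 0.05, while DESeq2 gave 0 after adjustment and 1 before), beside 1.05% of all genes. The 2 villus zones share the same crypt samples as control, so their changes are not independent.

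The make-up of the ribosomal protein UMIs moved by a few points. The 5 most abundant members (Rps12, Rplp1, Rpl41, Rplp0 and Rps24) took 12.8% of the 2972710 member UMIs and the first 20 took 38.0%. Small subunit genes made up 42.8% to 44.2% of member UMIs in the crypt and 40.9% to 43.9% at the tip, and large subunit genes 47.9% to 49.5% and 48.1% to 50.9%. The paralogs made up 1.26% to 1.64% in the crypt, 1.47% to 2.85% in the mid-villus and 1.43% to 2.37% at the tip. From crypt to tip the small subunit part was lower in 5 of 5 mice and the paralog part higher in 5 of 5, with overlapping ranges. In single enterocyte-like cells the ranges stood apart. There the small subunit genes made up 43.7% to 45.6% of member UMIs in the crypt and 34.0% to 41.0% at the tip, and the paralogs 1.43% to 1.68% and 2.27% to 3.88%. The leading 5 genes of each sum took 11.4% to 12.7% in crypt cells and 13.4% to 24.6% in tip cells, the highest in mouse 1 with 2138 member UMIs. These parts follow from the same counts as the changes of single members and were not tested. The median change was −1.55 in the 40 tested genes with a pyrimidine run near the annotated start and −1.54 in the 19 without one there, Rps27l and Rpl7l1 among the latter, both on the log2 scale.

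Ribosomal protein genes have many processed copies in the genome, and the tables list 241 pseudogene rows (-ps) for clumps. Per 100 UMIs of the members these rows held 39.1 to 60.1 UMIs in the crypt, 40.7 to 59.8 in the mid-villus and 37.8 to 59.7 at the tip. Of the 164 rows tested, 149 were lower at the tip (24.6% of all genes were), with a median log2 change of −1.55, the same as that of the members. Levels of single members are therefore uncertain where a near-identical copy shares their reads. With the copies counted in, the difference of the villus tip from the crypt was −10.4 points (exact permutation test, adjusted p = 0.0119).

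Other genes of the translation machinery were lower at the tip as well, though not all. Of 34 further TOP mRNAs and translation partners, outside the symbol rule, 33 were tested and 25 were lower (24.6% of all 7912 genes were), with a median log2 change of −1.16. Among them were the elongation factor Eef1a1 (−1.59 ± 0.41, edgeR adjusted p = 0.00313), the nucleolar chaperone Npm1 (−2.42 ± 0.37, edgeR adjusted p = 3.49e-05) and the splicing regulator Hnrnpa1 (−2.13 ± 0.35, edgeR adjusted p = 7.43e-05). The elongation factor Eef2 (−0.58 ± 0.31, edgeR adjusted p = 0.125), Tpt1 (−0.64 ± 0.30, edgeR adjusted p = 0.0808) and Fau (−0.21 ± 0.28, edgeR adjusted p = 0.566), whose product carries the small subunit protein eS30 and which is thus a ribosomal protein gene by function, did not pass. Of 69 ribosome biogenesis genes, 51 were tested and 43 were lower, with a median of −1.99. They included the nucleolar proteins Ncl (−2.50 ± 0.40), Fbl (−3.18 ± 0.67), Nop56 (−3.39 ± 0.54) and Dkc1 (−3.75 ± 0.55). Of 80 mitochondrial ribosomal protein genes, whose products serve the organelle's own ribosome, 78 were tested and 50 were lower, with a median of −0.94.

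The size of the clump was compared within the crypt. Pairs had a ribosomal protein share of 11.8%, 10.7%, 11.0%, 6.66% and 5.01% in mice 1 to 5, and larger clumps 10.6%, 11.8% and 6.63% in mice 1, 4 and 5. The difference was 0.624 points in favour of larger clumps, which were higher in 2 of the 3 mice with both (exact permutation test, p = 0.750, smallest possible 0.0179). It was −0.402 points over clumps with more than 1000 UMIs, and between −1.02 (without mouse 4) and 1.13 (without mouse 5) with 1 mouse left out. Larger clumps were higher by 1.51 points in the mid-villus (exact permutation test, p = 0.321) and by 1.66 points at the tip (exact permutation test, p = 0.286), in 3 of 3 mice each. The pairs of mouse 5 were only 10 clumps, and in mouse 4 the mitochondrial share was 18.4% in pairs and 6.19% in larger clumps. The part of the mitochondrial share in the result was not tested. In the fit over genes none of the 83 tested members was called between the gates (0 in edgeR, 0 at an unadjusted p under 0.05 and 0 in DESeq2, beside 0.0% of 4657 genes), and their median log2 difference was 0.13, against 0.04 over all genes. Without the pairs of mouse 5 that median was 0.04, with 30 of 83 members below 0 in place of 13.

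Among the named types of single cells, the immune-like cells were richest in ribosomal protein mRNAs and the enterocyte-like cells poorest. The share was 0.142%, 1.03%, 1.80% and 1.26% in enterocyte-like cells of mice 1 to 4. It was 0.702%, 0.842%, 2.64% and 5.91% in goblet-like cells, 2.49%, 2.98%, 2.92% and 3.26% in enteroendocrine-like cells, and 1.23%, 2.42% and 3.05% in tuft-like cells of mice 1 to 3. In immune-like cells of mice 2 to 4 it was 6.73%, 6.95% and 7.94%. Immune-like values were close together and above every value of the other named types, and enteroendocrine-like values were above every enterocyte-like value, while goblet-like and tuft-like values overlapped with enterocyte-like ones. Some of these values rest on few cells. Enteroendocrine-like cells numbered 11, 216, 8 and 8 in mice 1 to 4, goblet-like cells 45, 80, 72 and 14, and tuft-like cells 19, 157 and 6 in mice 1 to 3.

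**Figure D4:**
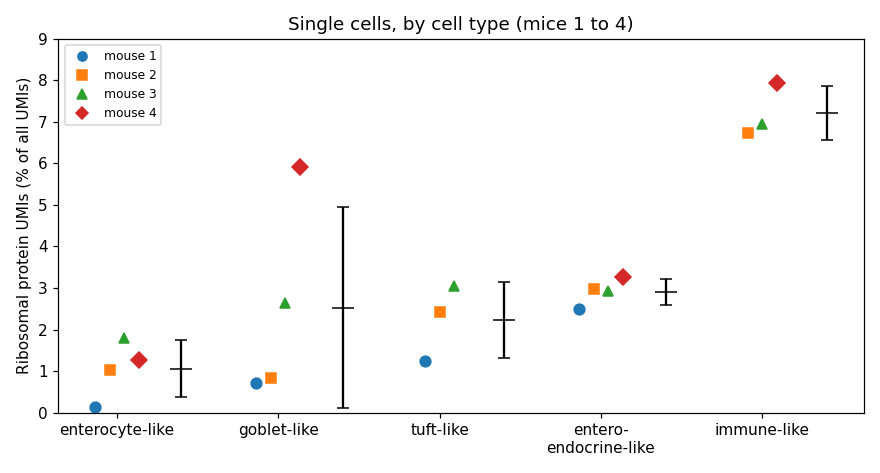
Ribosomal protein share of UMIs (percent, vertical axis) by cell type in single cells, with 1 point per mouse and the mean ± SD. Immune-like cells lie at 6.73% to 7.94% and enterocyte-like cells at 0.142% to 1.80%.

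In order of the mean, the share was 7.21% ± 0.647 (SD, n = 3) in immune-like, 2.91% ± 0.317 (SD, n = 4) in enteroendocrine-like, 2.52% ± 2.42 (SD, n = 4) in goblet-like, 2.23% ± 0.920 (SD, n = 3) in tuft-like and 1.06% ± 0.690 (SD, n = 4) in enterocyte-like cells. Immune-like cells were 6.15 points above enterocyte-like cells, 6.82-fold (higher in 3 of 3 mice, exact permutation test, p = 0.0286, adjusted p = 0.0571 over 4 comparisons). Enteroendocrine-like cells were 1.85 points above (higher in 4 of 4 mice, exact permutation test, p = 0.0286, adjusted p = 0.0571). The difference was 1.47 points for goblet-like (exact permutation test, p = 0.314, higher in 3 of 4 mice), or 0.404 to 2.02 with 1 mouse left out, and 1.18 for tuft-like cells (higher in 3 of 3 mice, exact permutation test, p = 0.171, adjusted p = 0.229). No test reached 0.05 after adjustment, and p = 0.0286 is the smallest that these numbers of mice allow.

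Several measures moved with these groups. The mitochondrial share was 30.3% to 33.1% in enterocyte-like, 10.1% to 11.6% in immune-like and 9.63% to 19.7% in enteroendocrine-like cells, and the median UMIs per cell were 2254 to 3583 in enterocyte-like and 730 to 1006 in immune-like cells. The immune list took 4.77% to 5.71% of UMIs in immune-like cells, with 24 to 26 of its 26 genes detected, and 0.101% to 0.180% in enterocyte-like cells. The immune-like cluster was led by Gzma, Ccl5, Gzmb, Cd7, Cd8a and Cd3g, genes of cytotoxic lymphocytes. Of the enterocyte-like cells, 1726 were placed at the villus tip, 540 in the mid-villus and 188 in the crypt. Those placed in the crypt had a ribosomal protein share of 4.15% to 7.33%, which overlaps the 6.73% to 7.94% of immune-like cells. Enterocyte-like cells of mouse 1 were mostly from the villus tip (660 of 692). In mouse 2, those on plates labelled CD24 had a ribosomal protein share of 6.43% (32 cells) and those on plates labelled Epcam 0.835% (489 cells). Immune-like cells of that mouse on the CD24 plates had 7.14% (649 cells), close to the enterocyte-like cells of the same plates. On its plates without a sort label, 11 immune-like cells had 0.360% and 47 enterocyte-like cells 0.804%. In mice 3 and 4 the types stood apart on the same plates. Immune-like against enterocyte-like cells had 6.99% and 1.77% (onlyEpcam, mouse 3), 5.14% and 1.84% (CD45Epcam, mouse 3), 7.91% and 1.03% (onlyEpcam, mouse 4) and 8.85% and 2.05% (CD54Epcam, mouse 4). The part of these measures in the differences between types was not tested.

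In the fit over genes, 82 of the 85 members could be tested (Rpl39l had 0 UMIs, Rpl3l 1 and Rps4l 152). In immune-like against enterocyte-like cells, 67 were higher and 1 lower (edgeR adjusted p under 0.05, beside 27.8% of 4554 genes higher and 57.9% changed in either direction), with a median log2 change of 1.62 against −0.05 over all genes. In 81 members every immune-like mouse lay above every enterocyte-like mouse, as it did for 56.4% of all genes. Rps15a (chr7:118104372-118116188, minus strand), a small subunit protein, had 1459, 1697 and 1924 CPM in immune-like cells and 7.35 to 198 in the 4 mice of enterocyte-like cells, the largest change (7.34-fold higher, log2 change 2.88 ± 0.69, edgeR adjusted p = 0.000642). Rpl13a, which is also released from the ribosome as part of an interferon-induced silencing complex, had 1815, 1971 and 2166 against 19.9, 159, 278 and 186 (log2 change 2.46 ± 0.55, edgeR adjusted p = 0.000178). Rpl12 was higher by 2.19 ± 0.63 on the log2 scale (edgeR adjusted p = 0.00320), Rps23 by 2.17 ± 0.57 (edgeR adjusted p = 0.00115) and Rps21 by 2.14 ± 0.56 (edgeR adjusted p = 0.00118).

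Of the most abundant members, Rplp1 rose by 1.64 ± 0.58 (edgeR adjusted p = 0.0152, and 0.0693 with no filter on low counts) and Rps24 by 1.90 ± 0.60 (edgeR adjusted p = 0.00683) in immune-like cells, both on the log2 scale. Rps12 (1.14 ± 0.59, edgeR adjusted p = 0.0956), Rplp0 (1.13 ± 0.57, edgeR adjusted p = 0.0849) and Rpl41 (0.85 ± 0.50, edgeR adjusted p = 0.145) did not pass. By total UMIs all of them did (edgeR adjusted p = 0.0119, 0.00683 and 0.00135). Rplp0 also passed with the mouse as a block (0.99, edgeR adjusted p = 0.0296), with DESeq2 size factors (edgeR adjusted p = 0.0496) and without mouse 3 (edgeR adjusted p = 0.0237), Rps12 without mouse 3 (edgeR adjusted p = 0.0287) and Rpl41 in DESeq2 (adjusted p = 0.00568). Rps27l was the 1 member called lower (log2 change −1.42 ± 0.51, edgeR adjusted p = 0.0168). Its levels were 63.1, 77.2 and 76.6 CPM in immune-like cells and 25.9, 94.6, 104 and 97.3 in enterocyte-like cells, which overlap, and scaled by total UMIs its change was −0.06 (edgeR adjusted p = 0.928). It was also lost without mouse 2, 3 or 4 (edgeR adjusted p = 0.176, 0.227 and 0.153). The count of higher members was 80 with scaling by total UMIs (54.9% of all genes), which moved the median of all genes from −0.05 to 1.41, 36 with no filter on low counts (14.7% of all genes), and 48 without mouse 2 (23.6%).

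Of the further TOP mRNAs and translation partners, 14 of 33 tested were higher in immune-like cells (27.8% of all 4554 genes were), with a median log2 change of 1.04, Eef1a1 among them (1.84 ± 0.60, edgeR adjusted p = 0.00867). Of 13 ribosome biogenesis genes tested, 10 were higher (median 1.44). Of 22 mitochondrial ribosomal protein genes tested, 2 were higher and 1 lower (median −0.20).

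No member was called between enterocyte-like cells and the other types. For goblet-like cells the edgeR count was 0 of 82 (1 at an unadjusted p under 0.05, 2 higher in DESeq2, where 4.84% of all genes were), beside 23.5% of all genes changed in edgeR. For enteroendocrine-like cells it was 0 (0 unadjusted, 3 higher in DESeq2, where 5.29% of all genes were, 7 higher with the mouse as a block, where 13.0% of all genes were), beside 30.4%, and for tuft-like cells 0 (0 unadjusted, 1 higher in DESeq2, where 4.76% of all genes were, 1 lower with the block, which was Rps2 at a log2 change of −1.32 and an adjusted p = 0.0495, where 18.9% of all genes were lower), beside 24.8%. The scaling mattered here. By total UMIs, 18 members were higher in enteroendocrine-like (30.2% of all genes), 3 in tuft-like (26.2%) and 1 in goblet-like cells (11.1%), while the median of all genes also moved, to 1.09, 0.92 and 0.30 on the log2 scale. With DESeq2 size factors 1 was higher in goblet-like (7.49% of all genes) and 2 in enteroendocrine-like cells (11.4%). Every mouse lay above every enterocyte-like mouse for 37 members in enteroendocrine-like cells (12.6% of all genes) and for 12 in tuft-like cells (22.7%). Rpl41 was the member with the largest goblet-like difference, at 1025, 1013, 1242 and 2335 CPM in goblet-like and 106, 358, 571 and 448 in enterocyte-like cells. Those values did not overlap, which held for 1 member and for 10.9% of all genes, and the change did not pass the test (log2 1.00 ± 0.48, edgeR adjusted p = 0.131). It did with DESeq2 size factors (1.48, edgeR adjusted p = 0.0183), by total UMIs (1.91, edgeR adjusted p = 0.0109) and in DESeq2 (1.47, adjusted p = 8.43e-09). In tuft-like cells Rpl41 had 1251, 1928 and 1295 CPM (log2 0.93 ± 0.51, edgeR adjusted p = 0.203), a change that passed by total UMIs (2.06, edgeR adjusted p = 0.00596) and in DESeq2 (1.21, adjusted p = 6.29e-05).

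The fall along the axis was also seen within single enterocyte-like cells. Cells placed in the crypt had a ribosomal protein share of 4.15%, 6.63%, 5.99% and 7.33% in mice 1 to 4 (8, 41, 92 and 47 cells). Mid-villus cells had 0.555%, 1.14%, 1.51% and 1.74%, and villus tip cells 0.0969%, 0.381%, 0.650% and 0.556%. The crypt and tip values stood apart by a wide gap, and in every mouse the order was crypt, mid-villus, tip. The villus tip differed from the crypt by −5.60 points, 14.3-fold lower (lower in 4 of 4 mice, exact permutation test, p = 0.0286, the smallest possible, adjusted p = 0.0571), and from the mid-villus by −0.813 points, 2.93-fold lower (lower in 4 of 4 mice, exact permutation test, p = 0.0857). The immune list took 0.219% to 1.15% of UMIs in cells placed in the crypt and 0.0369% to 0.126% at the tip. Without cells holding 3 or more UMIs of that list, the differences were −5.13 points from the crypt and −1.33 points from the mid-villus (exact permutation test, adjusted p = 0.0286 for both).

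Single members followed. Of 83 tested, 82 were lower at the villus tip than in the crypt (edgeR adjusted p under 0.05, beside 31.3% of all 3750 genes), with a median log2 change of −3.16 against −0.02 over all genes. In 80 members every tip value lay below every crypt value, as in 26.3% of all genes. Rps15a fell from 592, 741, 780 and 1010 CPM in the crypt to 3.17, 17.6, 50.6 and 35.5 at the tip (log2 change −4.15 ± 0.65, edgeR adjusted p = 1.9e-05). Rpl23a, which lies near the exit of the nascent chain tunnel, had a log2 change of −4.06 ± 0.56 (edgeR adjusted p = 4.55e-06) and Rpl12 of −3.90 ± 0.69 (edgeR adjusted p = 7.49e-05). At the other end were Rpl41 (−2.19 ± 0.41), Rpl28 (−1.83 ± 0.42), Rpl7l1 (−1.34 ± 0.54), Rps27l (−1.32 ± 0.37, edgeR adjusted p = 0.00401) and Rps4l (−0.49 ± 0.63, edgeR adjusted p = 0.517), the only member not called. Rps27l lost its call without mouse 2, 3 or 4 (edgeR adjusted p = 0.0784, 0.177 and 0.111) and Rpl7l1 without mouse 2 or 4 (edgeR adjusted p = 0.0573 and 0.518) and in DESeq2 (adjusted p = 0.290). Among the TOP and translation partners 24 of 27 tested were lower, and all 4 tested ribosome biogenesis genes.

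Between villus tip and mid-villus cells, 6 of 83 members were lower (edgeR adjusted p under 0.05), no larger a share than the 8.13% of all genes, with a median log2 change of −0.96 against −0.09. They were Rps28 (−1.59 ± 0.50, edgeR adjusted p = 0.0286), Rpl15 (−1.53 ± 0.46), Rpl10 (−1.52 ± 0.41, edgeR adjusted p = 0.0141), Rpl23a (−1.46 ± 0.52), Rpl22 (−1.38 ± 0.49) and Rps4l (−1.20 ± 0.43). In DESeq2 the calls of Rpl23a, Rpl22 and Rps4l were lost (adjusted p = 0.0839, 0.0660 and 0.211). With the mouse as a block 69 were lower (20.1% of all genes), and with scaling by total UMIs, which moved the median of all genes to −0.88, 74 were (39.1%). The count was 46 without mouse 1 (9.42% of all genes), 1 without mouse 3 (2.11%) and 0 without mouse 2 (0.527%) or mouse 4 (0.488%), so calls over all genes were also fewer without mouse 2, 3 or 4.

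The order of the members by change was alike, though not the same, in clumps and in single cells. Across the 83 members tested in both, the log2 change from crypt to villus tip correlated at Pearson r = 0.869 and Spearman rho = 0.766, and across the 78 without the listed paralogs at 0.755 and 0.745. This is a description across genes, which are not independent replicates and share their libraries, and the crypt and tip lists were the same in both. Of the 5 largest falls in each, only Rpl12 and Rpl36a were shared, and Rpl6l, among the 5 in clumps, was at −3.18 in cells, near the median. At the high end of both were Rpl28, Rpl41, Rpl7l1, Rps27l and Rps4l.

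**Figure D5:**
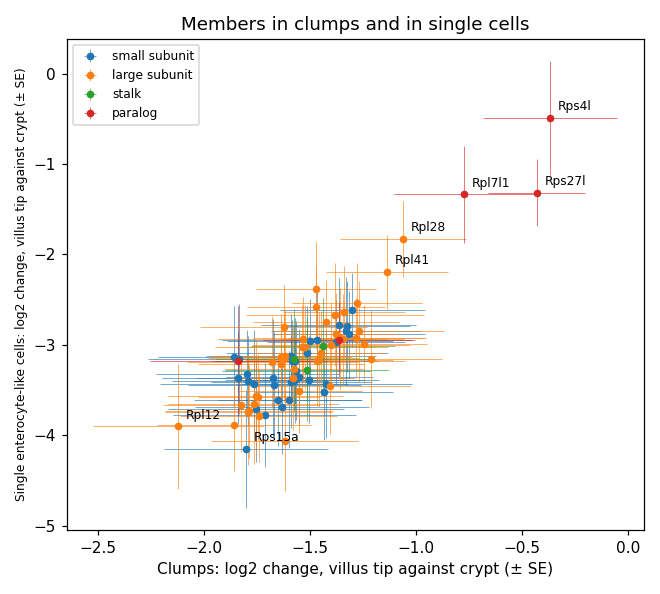
Log2 change from crypt to villus tip of each member in clumps (horizontal axis) and in single enterocyte-like cells (vertical axis), 83 genes, colored by role. Points run from Rpl12 (−2.12 and −3.90) to Rps4l (−0.37 and −0.49).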

How the data were processed

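The authors sequenced MARS-seq libraries of clumps and single cells (demultiplexing with bcl2fastq 2.15.0.4, build GRCm38, per the labels), mapped reads with STAR within zUMIs and deposited raw UMI counts per gene and well, 1 table each, with no normalization. The clump table held 17162 wells and 38454111 UMIs, and for single cells it was 16850 wells and 39137313 UMIs. Both hold whole numbers and many near-empty wells, so they come before background subtraction, and none was subtracted here. Wells under 100 UMIs, summed per mouse, had a ribosomal protein share of 1.17% to 3.86% on 4n plates and 1.81% to 9.16% on h4n plates. On single-cell plates it was 1.94% to 2.82%. The part of background in the shares of zones and cell types was not tested. Well barcodes recur across plates by design, and wells were identified by plate and barcode. Gene positions are from the GRCm38 annotation and start sequences from RefSeq GRCm38.p6.

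Clumps were kept with at least 200 genes, over 500 UMIs and at most 30% mitochondrial UMIs (6282, of which 6004 from mice 1 to 5), and single cells from 200 to 7000 UMIs, from 150 to 1500 genes and up to 40% mitochondrial. These upper limits were the treatment of doublets, and no doublet caller was run. A zone was the landmark list with the highest sum relative to its mean, in wells with at least 5 landmark UMIs. The crypt landmarks of the study were not used for zones, since 29 of the 30 are ribosomal protein genes or copies of them. Cells were clustered with scanpy 1.11.5 (2000 variable genes, 25 components, 20 neighbors, Leiden resolution 0.1) and named from fixed markers, which are rebuilt names and not the authors' own. Groups of a mouse with fewer than 5 wells were left out. A cluster of 392 cells, led by immunoglobulin and hemoglobin genes, stayed unnamed.

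UMIs were summed per mouse and group. Shares were compared by two-sided exact permutation tests over mice (scipy 1.17.1), and genes with edgeR 4.0.16 (quasi-likelihood, TMM, filterByExpr, R 4.3.3) over all genes, with Benjamini-Hochberg adjustment at 0.05. Landmark genes stayed in the zone fits and were left out of the numbers of all genes tested and called. They were kept in the shares of all genes without overlap between zones. The script was tested on simulated counts. Replicates are mice, and groups of the same number within a table were taken as the same animal. For mouse 2 of the single cells, whose plates carry both ages, this cannot be told from the labels. After removal of group means, groups of the same mouse correlated at 0.523 to 0.791 between zones of clumps (15 of 15 pairs over 0.1), at 0.0368 to 0.768 between zones of single cells (10 of 12), at −0.153 to 0.698 between cell types (24 of 32) and at −0.00458 to 0.336 between gates (2 of 3). The mouse was not a term of the main fits, and blocking on it was one of the alternatives.

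Named genes were the 5 members with the largest and the 5 with the smallest change in each comparison, the 5 most abundant, the stalk genes, Rpsa, Rpl3, Rpl4 and the paralogs. Rps6, Rpl22 and the genes of the partner lists were named after their values were seen. The members and all lists were chosen with earlier results of these data known. Alternatives changed the scaling, the filter, the zone rule, the UMI minimum and the clumps used, with DESeq2 1.42.0 as the other tool. Clumps labelled h2n of mouse 6 entered no comparison.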

Additional observations from a re-analysis of the deposited data

Results flagged for a closer look

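In the crypt clumps, the ribosomal protein share of mouse 5 (6.44%) stood apart from those of the other 4 mice, by 81.8% of the range of the 5. It was 1 of 12 groups of mice examined in this way, of which chance alone flags about 1 in 20. In that mouse the mitochondrial share was also the highest of the 5.

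Clumps labelled h2n of mouse 6, which entered no comparison, had a ribosomal protein share of 5.84% in crypt clumps, of 2.95% in mid-villus clumps and of 1.14% in villus tip clumps. It is 1 mouse, so the difference was not tested.

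The unnamed cluster of single cells had a ribosomal protein share of 7.75%, 8.05%, 3.61% and 6.15% in mice 1 to 4, above the enterocyte-like cells of the same mouse in each. In mouse 2 it was also above the immune-like cells (6.73%), and in mice 3 and 4 below them (6.95% and 7.94%).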

How the results depend on the processing

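Shares of ribosomal proteins in the crypt against either villus zone kept their direction under every alternative run. Between villus tip and mid-villus the difference of −0.204 points was 0.480 with zones set by correlation, 0.128 with pairs only and 0.192 without mitochondrial and the 50 most abundant genes, and lay between −0.617 and 0.392 with 1 mouse left out. With the mouse as a replicate block the tip and mid-villus differences from the crypt stayed at −6.92 and −6.72 points at an adjusted p = 0.0938 (exact permutation test). With 1 mouse left out they ranged from −7.39 to −6.49 and from −7.20 to −6.36. Crypt larger clumps against pairs went from 0.624 to −0.402 points over 1000 UMIs per clump, and lay between −1.02 and 1.13 with 1 mouse left out. Without single cells holding 3 or more immune-list UMIs (chosen after seeing the data), the tip was −1.33 points from the mid-villus and −5.13 from the crypt.

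For counts of called members, goblet-like cells had 1 higher by total UMIs, 1 with DESeq2 size factors and 2 in DESeq2 (11.1%, 7.49% and 4.84% of all genes). Enteroendocrine-like cells had 18, 2 and 3 (30.2%, 11.4% and 5.29%), and 7 with the replicate block. Tuft-like cells had 3 higher by total UMIs and 1 in DESeq2. They had 1 lower with no filter (1226 of 20685 genes were), 1 with the block and 0 to 1 with a mouse left out (1 without mouse 1, 813 of 6446 genes). Immune-like cells had 36 higher with no filter and 48 to 77 with a mouse left out (77 without mouse 3, where 1531 of 4977 genes were higher). They had 0 lower by total UMIs, 2 with no filter (3135 of 20685 genes were) and 0 to 2 with a mouse left out (2 without mouse 1, 1600 of 6446 genes). In single enterocyte-like cells, villus tip against mid-villus gave 74 lower by total UMIs, 69 with the block and 0 to 46 with a mouse left out. The block changed no other count by over 1.5 times, and 16 calls of 14 named members were gained with it, 0 lost. Of 2219 values of single members, 2101 stayed on their side of the threshold, 68 came to pass it and 50 no longer passed it. The sign was the other one in 175 of the 2101, all of them called neither before nor after. The causes were not tested. Zones set by the crypt landmarks of the study use the members themselves and are no test. Differences may not be detectable at the depth of the 10 crypt pairs of mouse 5 or of Rps4l in single cells (152 UMIs). The same holds for the enteroendocrine-like cells of mice 3 and 4 (8 cells each) and the tuft-like cells of mouse 3 (6 cells).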
